A study of Mus musculus with 21 samples.

Results

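RNA-seq counts of 2 Asxl1-/- libraries were compared with those of 3 WT libraries, to describe what changed with the loss of Asxl1 alone. Members of the comparison were the genes on chromosomes 1 to 19, which were 50225 of 54532 genes in the table. Of these, 26087 had a count in at least 1 of the 5 libraries and 15718 passed the filter on low counts and were tested. The 5 libraries belong to 11 RNA-seq libraries and 21 samples in all. The other RNA-seq libraries were 3 Asxl1-/-Jak2V617F and 3 Jak2V617F libraries, which entered the fit to estimate the spread. All cells came from the femur and tibia of C57BL/6 mice and had been enriched with magnetic beads for c-kit (CD117, the stem cell factor receptor), which marks blood stem and progenitor cells of the marrow. The labels give neither the age of the mice nor the design of the Asxl1 allele or of any Cre driver, and do not say that replicates were separate animals. The p-values below can therefore only be read against the differences among libraries of 1 genotype, and how far those are technical was not tested.

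ASXL1 is a nuclear protein that binds and activates the deubiquitinase BAP1, which removes ubiquitin from histone H2A at the lysine that Polycomb repressive complex 1 (PRC1) modifies. ASXL1 has also been tied to Polycomb repressive complex 2 (PRC2), which methylates histone H3 at lysine 27. ASXL1 is often mutated in clonal haematopoiesis and myeloid neoplasms.

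Kit itself stood at 265 and 249 CPM (read count scaled to library size by edgeR, with TMM factors) in Asxl1-/- cells and at 289, 253 and 264 CPM in WT cells, so the marker of the sort overlapped between genotypes. Markers of other cells were present, at levels that differed widely between lists. The summed level of 20 tested T and NK cell genes was 32.0 to 53.8 CPM in Asxl1-/- and 28.1 to 47.8 CPM in WT, with Cd3e below 1 CPM in every library, and 12 tested stroma and endothelium genes summed to 100.2 to 110.1 CPM against 90.4 to 97.6 CPM. The 22 late neutrophil genes, of more mature cells, summed to 67060 to 69270 CPM against 42320 to 64940 CPM. Erythroid genes summed to 4304 to 4891 CPM against 2914 to 4907 CPM. Monocyte and macrophage genes had 3412 to 4475 CPM against 2535 to 3340 CPM, and B lymphoid genes 1046 to 1615 CPM against 1093 to 1411 CPM. Because the samples are bulk cells, fewer cells of a type and less RNA per cell cannot be told apart.

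Depth was even, with 18657276 and 18741223 counts in the Asxl1-/- libraries and 16198011 to 17483802 in the WT libraries. On the first principal component of the 5 libraries, which held 61.3% of the variance, both Asxl1-/- libraries lay apart from the WT libraries, and WT 1 was the WT library nearest to them. Both Asxl1-/- libraries were male by their reads (3298 and 3337 counts on Y-linked genes, none in WT), and all 3 WT libraries were female by their Xist counts (3 and 0 counts in Asxl1-/-, 33833 to 38159 in WT). Sex and genotype cannot be told apart within these 5 libraries. A term for sex could be estimated only through Jak2V617F 2, the single male library of the other 6.

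The Asxl1-/- libraries also stood apart in the kind of transcript that was counted. The count-weighted median gene length was 3890 and 3927 bases in Asxl1-/-, against 4332, 4464 and 4442 bases in WT, and 4237 to 4467 bases in the other 6 libraries. The share of autosomal counts on long intergenic non-coding RNAs was 0.189% and 0.214% in Asxl1-/-, against 0.372%, 0.475% and 0.464% in WT. The share on TEC genes, an annotation class of transcripts that await experimental support, was 0.0418% and 0.0467% in Asxl1-/-, against 0.110%, 0.128% and 0.123% in WT. On both measures of non-coding RNA the 2 Asxl1-/- libraries were the lowest of all 11. The part of this difference in the results below was not tested. Results are therefore also given from a second fit, here called the length offset. It adjusts for each library's trend of counts with gene length, taken over all tested genes. Among protein-coding genes it left part of that trend (median log2 fold change 0.29 in the shortest of 10 groups and 0.04 in the longest).

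Of the 15718 genes, 3549 (22.6%) were called, 1777 (11.3%) higher and 1772 (11.3%) lower in Asxl1-/- than in WT. The fit was edgeR's quasi-likelihood test with Benjamini-Hochberg adjustment, and a gene was called at an adjusted p under 0.05. The changes were uneven in kind and size. Changes of at least 2-fold were seen in 152 genes called higher (0.967% of genes tested) and in 942 called lower (5.99%). Genes called higher were short and abundant, with a median length of 2702 bases and a median level of 74.5 CPM, and genes called lower were longer and less abundant, with a median length of 5066 bases and a median level of 9.54 CPM. Genes that were not called had a median length of 3752 bases. The libraries of the 2 genotypes did not overlap for 9014 genes (57.3%).

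The calls rested on both Asxl1-/- libraries. Without Asxl1-/- 1, which leaves a lone Asxl1-/- library that is assumed to vary like the other groups, 74 genes were called higher (0.445%) and 205 lower (1.23%). Without Asxl1-/- 2 the counts were 658 and 716. They were 2449 and 1788 without WT 1, 818 and 1059 without WT 2, and 983 and 1145 without WT 3. With a sex term, 92 genes were called higher (0.585%) and 401 lower (2.55%). The length offset gave 1911 genes higher (12.2%) and 1279 lower (8.14%), of which 1521 and 1260 were among those called without it.

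Of tested protein-coding genes 12.9% were called higher and 8.71% lower, along a gradient of gene length. In the shortest of 10 groups of about equal size (72 to 1701 bases) the median log2 fold change was 0.36, and 27.6% of genes were called higher and 2.72% lower. In the longest group (9802 to 123179 bases) the median was -0.29, with 2.24% called higher and 31% lower. The medians fell in order from the shortest to the longest group. With the length offset the shortest group kept a median of 0.29 and the longest had 0.04. Non-coding classes moved mainly one way. Of 530 tested TEC genes 234 were called lower and 1 higher. Of 524 antisense genes 159 were called lower and 0 higher (1 higher at an unadjusted p under 0.05), and of 458 long intergenic non-coding RNAs 94 were lower and 6 higher. Processed pseudogenes went mostly the other way, with 133 of 795 called higher and 45 lower. Reads of pseudogenes cannot be told apart from those of their parent genes here.

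**Figure D1:**
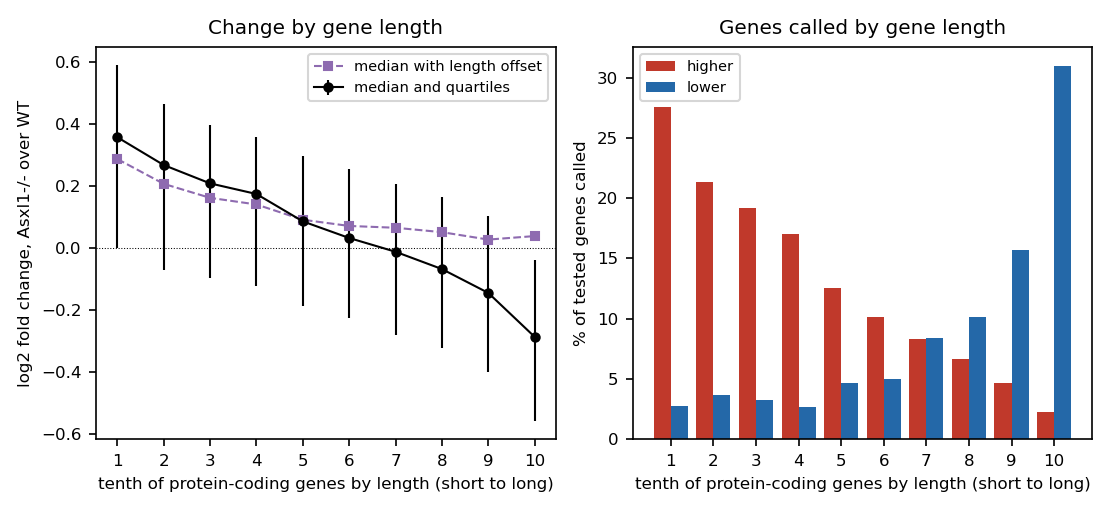
Change by gene length in Asxl1-/- against WT, over 10 groups of protein-coding genes from short to long. The left panel gives the median log2 fold change with its quartiles (black) and the median with the length offset (purple), and the right panel gives the percentage of tested genes called higher (red) or lower (blue). The median was 0.36 in the shortest group and -0.29 in the longest.

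Asxl1 (ENSMUSG00000042548, mm10 chromosome 2, 153345829 to 153404007, plus strand) was measured at 89.0 and 97.0 CPM in Asxl1-/- libraries, against 162, 164 and 161 CPM in WT libraries. Both Asxl1-/- values lay below every WT value, but the transcript was not lost. The log2 fold change was -0.80 ± 0.14 (SE), with an adjusted p of 0.0042, or 0.071 without Asxl1-/- 1 and 0.14 with a sex term. The counts cover whole genes, and which exons were removed is not given in the sources used here. Asxl2 (ENSMUSG00000037486, chromosome 12, 3426857 to 3506852), a paralog that also binds BAP1, had 72.5 and 80.1 CPM in Asxl1-/-, against 108, 108 and 106 CPM in WT (-0.49 ± 0.08, adjusted p = 0.0036). That call did not hold without Asxl1-/- 1 (adjusted p = 0.075) or with the length offset (-0.10, adjusted p = 0.47). Bap1 itself was 125 and 127 CPM in Asxl1-/- and 109, 100 and 109 CPM in WT (0.25 ± 0.08, adjusted p = 0.042). Its call was lost without Asxl1-/- 1 (0.17), Asxl1-/- 2 (0.17), WT 2 (0.13) or WT 3 (0.078). The other 6 tested members of the ASXL and BAP1 complex were not called.

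Polycomb genes changed in both directions. Of 20 tested PRC1 genes 4 rose (20%) and 3 fell (15%), beside 11.3% each way of all tested genes. Their median log2 fold change was 0.06, beside -0.01 for all tested genes, and -0.19 with a sex term. With that term 0 PRC1 genes were called higher and 1 lower. Phc3 (ENSMUSG00000037652, chromosome 3, 30899371 to 30969415), a Polyhomeotic subunit that lets PRC1 complexes self-associate, was at 37.9 and 48.6 CPM in Asxl1-/-, against 84.4, 92.8 and 88.1 CPM in WT. It fell by 1.03 ± 0.12 on the log2 scale (adjusted p = 0.000745). It was called without each of the 5 libraries (adjusted p at most 0.025), with a sex term (0.017) and with the length offset (-0.60, adjusted p = 0.0048), although its 17485 bases place it among the longest genes. Its homolog Phc2 was higher (81.6 and 76.6 CPM in Asxl1-/-, against 67.6, 51.8 and 58.8 CPM in WT; 0.41 ± 0.11, adjusted p = 0.019). Bmi1, the PCGF subunit of canonical PRC1 that blood stem cells need for self-renewal, had 58.0 and 59.3 CPM against 48.1, 41.6 and 48.5 CPM (0.35 ± 0.09, adjusted p = 0.021). Yaf2, a subunit of variant PRC1, rose as well (0.46 ± 0.11, adjusted p = 0.012). These 3 rises were lost without Asxl1-/- 1 (adjusted p = 0.12 to 0.15) or without Asxl1-/- 2 (0.0501 to 0.11), those of Phc2 and Bmi1 also without WT 2 (0.061 and 0.071), and that of Phc2 without WT 3 (0.055). Of 11 PRC2 genes 1 rose, the histone-binding subunit Rbbp4 (0.29 ± 0.08, adjusted p = 0.019), and 0 fell (2 at an unadjusted p under 0.05 and by DESeq2). With a sex term 0 PRC2 genes were called. The call of Rbbp4 was lost without any one of Asxl1-/- 1, Asxl1-/- 2, WT 2 and WT 3 (adjusted p = 0.057 to 0.14).

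Hox genes are held silent by Polycomb in many tissues, and several are active in immature blood cells. Of 13 tested Hox genes and partners 0 rose (also at an unadjusted p under 0.05 and by DESeq2) and 3 fell. The 3 falls are 23.1% of the list, beside 11.3% of all tested genes called lower. The median log2 fold change of the list was -0.41. With a sex term it was -0.40 and 0 were called. Hoxa7 was at 5.02 and 5.11 CPM in Asxl1-/-, against 10.6, 8.90 and 6.93 CPM in WT (-0.80 ± 0.24, adjusted p = 0.037). Hoxa3 (0.642 and 0.407 CPM against 1.46, 1.07 and 1.69 CPM) and Hoxb3 (0.642 and 0.407 CPM against 1.34, 1.86 and 1.27 CPM) were near the floor of detection. No fall was called without Asxl1-/- 1 (adjusted p = 0.12 to 0.21) or Asxl1-/- 2 (0.16 to 0.24), and the count of falls was 2 without WT 1, 0 without WT 2 and 1 without WT 3.

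**Figure D2:**
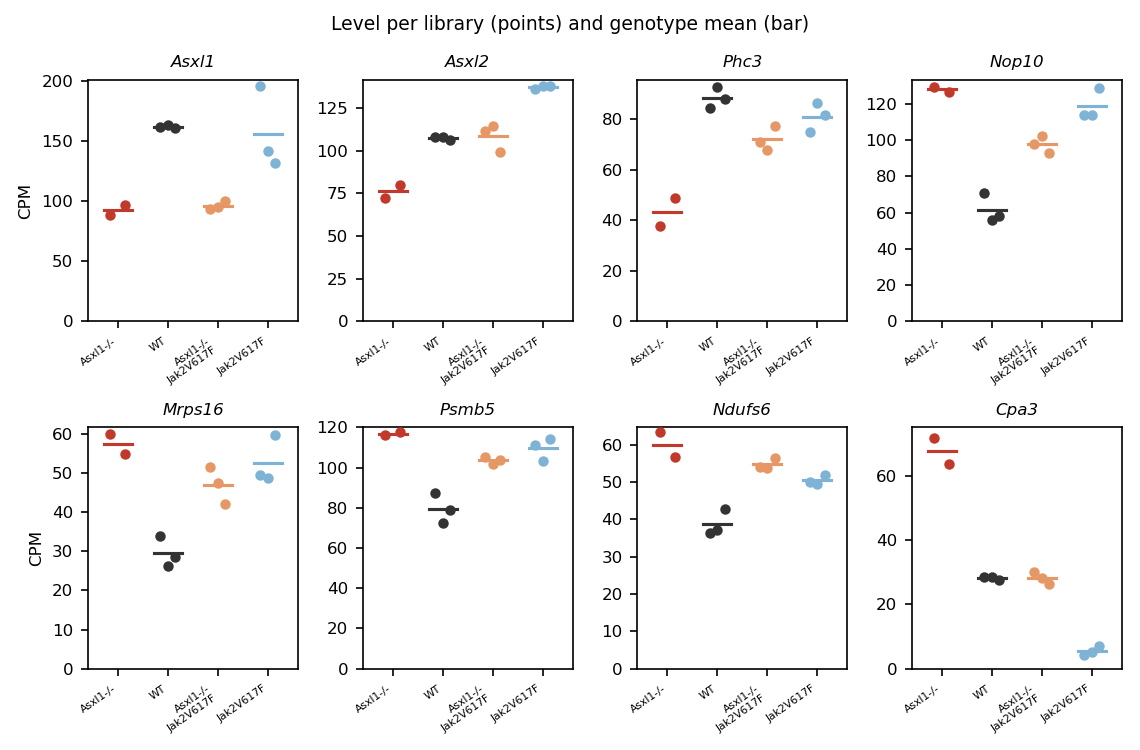
Level per library in CPM (points) and genotype mean (bars) of 8 genes, with Asxl1-/- left of WT and the 2 Jak2V617F genotypes to the right. The Asxl1-/- values of Asxl1, Asxl2 and Phc3 lie below all WT values, and those of Nop10, Mrps16, Psmb5, Ndufs6 and Cpa3 lie above them.

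Rises were widespread among genes for making and clearing protein and for respiration. The share of all tested genes called higher was 11.3%. In the shortest of the 10 protein-coding length groups it was 27.6%, with a median log2 fold change of 0.36. Ribosome biogenesis genes, which make and assemble ribosomes in the nucleolus, rose in 15 of 27 tested members, and 0 fell. Their median log2 fold change was 0.39, and all 27 values were above 0. Cytosolic ribosomal protein genes rose in 55 of 75 (median 0.63), mitochondrial ribosomal protein genes in 53 of 77 (0.47), and proteasome subunit genes in 31 of 38 (0.40), with 0 falls in each. These 3 last lists were added after values had been seen. They were matched by gene symbol, and the proteasome list also holds Psmc3ip (0.25, not called), which does not encode a subunit. Oxidative phosphorylation genes, which encode subunits of the respiratory chain and ATP synthase, rose in 24 of 40 (median 0.37), with 0 falls and all 40 values above 0. Over the 257 tested genes of these 5 lists, 0 were lower and 218 higher at an unadjusted p under 0.05, and DESeq2 called 0 lower and 198 higher.

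These counts depended on single libraries, and the medians stayed above 0 in each of these fits. Without Asxl1-/- 1 the counts of rises were 1 for ribosome biogenesis, 7 for cytosolic and 4 for mitochondrial ribosomal proteins, 1 for the proteasome and 1 for oxidative phosphorylation, with medians of 0.35, 0.63, 0.46, 0.38 and 0.37 in that order. Without Asxl1-/- 2 the counts were 9, 28, 30, 19 and 6. Without WT 2 they were 8, 34, 35, 24 and 9, without WT 3 10, 32, 39, 28 and 13, and without WT 1 17, 66, 62, 31 and 32, with medians of 0.49, 0.84, 0.59, 0.47 and 0.46. With the length offset they were 16, 52, 48, 32 and 15. With a sex term they were 1, 3, 6, 1 and 2, with medians of 0.44, 0.75, 0.63, 0.44 and 0.49. These genes are short (median length of the 24 called oxidative phosphorylation genes 1568 bases). The part of transcript length in their rise was not tested beyond the offset, which left part of the length trend.

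Nop10 (ENSMUSG00000027133, chromosome 2, 112261926 to 112263269), a core protein of the box H/ACA ribonucleoproteins that guide pseudouridylation of ribosomal RNA and belong to telomerase, was the ribosome biogenesis gene of smallest adjusted p. It was at 129 and 127 CPM in Asxl1-/-, against 70.5, 55.7 and 57.9 CPM in WT. That is a log2 fold change of 1.06 ± 0.11 (adjusted p = 0.00046). It was called without each library (adjusted p at most 0.02), with a sex term (0.017) and with the length offset (0.99). Nhp2 (chromosome 11, 51619735 to 51623714), which works in the same particles, was at 187 and 164 CPM in Asxl1-/-, against 126, 93.6 and 105 CPM in WT (0.70 ± 0.12, adjusted p = 0.0036, or 0.062 without Asxl1-/- 1).

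Among cytosolic ribosomal proteins, Rps16 had 1081 and 1045 CPM in Asxl1-/-, against 714, 618 and 626 CPM in WT (0.70 ± 0.10, adjusted p = 0.0016). Rpl37a had 719 and 748 CPM against 507, 418 and 429 CPM (0.70 ± 0.11, adjusted p = 0.0024). Rps29, also of the small subunit, had a wider gap, with 756 and 768 CPM in Asxl1-/-, against 331, 190 and 171 CPM in WT (1.73 ± 0.33, adjusted p = 0.0082, or 0.072 without Asxl1-/- 1). In each of the 3 genes WT 1 was the WT library nearest to Asxl1-/-. All ribosomal protein genes together took 7.28% and 7.07% of autosomal counts in Asxl1-/-, against 6.33%, 4.67% and 4.67% in WT, and 6.01% to 7.62% in the other 6 libraries. Several of these genes have processed pseudogenes, so their counts are uncertain.

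Mrps16 (chromosome 14, 20389304 to 20393634), of the small mitochondrial ribosomal subunit, had 60.0 and 55.0 CPM in Asxl1-/-, against 34.0, 26.3 and 28.4 CPM in WT (0.96 ± 0.14, adjusted p = 0.0019). Mrpl57, of the large subunit, had 72.6 and 67.6 CPM against 45.04, 39.95 and 44.36 CPM (0.70 ± 0.10, adjusted p = 0.0018). Psmb5, the proteasome subunit with chymotrypsin-like activity that bortezomib inhibits, had 116 and 118 CPM in Asxl1-/-, against 87.2, 72.6 and 78.7 CPM in WT (0.56 ± 0.09, adjusted p = 0.0026). In the respiratory chain, the complex I subunit gene Ndufa2 had 68.9 and 71.3 CPM in Asxl1-/-, against 48.3, 43.2 and 43.2 CPM in WT (0.64 ± 0.10, adjusted p = 0.0024). These 4 genes were called without each of the 5 libraries (adjusted p at most 0.044). Another complex I subunit gene, Ndufs6 (0.63 ± 0.10, adjusted p = 0.0024), and Cycs, which encodes cytochrome c (0.64 ± 0.11, adjusted p = 0.0036), rose too, but not without Asxl1-/- 1 (0.054 and 0.055).

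Promoter sequences are shown for 1 member of each of these 5 groups that rose together. Each member shown has a match to at least 1 of 2 motifs in a 300-base window around its start in RefSeq (GRCm38.p6). Among the called members that were searched, it is the one of smallest adjusted p with such a match. Called members without a matched promoter, among others, were not searched. A member of smaller adjusted p may therefore have been passed over unexamined. The motifs, in capitals and searched on both strands, were the E-box CACGTG, which MYC family factors bind, and the ETS core CCGGAAG, which ETS family factors bind and whose reverse complement is CTTCCGG. The 2 motifs share no overlapping match in these windows. The windows run 5′ to 3′ on the strand of the gene. They are Nhp2 at chr11:51619523-51619822 (plus), Rpl35 at chr2:39005082-39005381 (minus), Mrpl57 at chr14:57825989-57826288 (plus), Psma4 at chr9:54950609-54950908 (plus) and Cox6a1 at chr5:115348909-115349208 (minus).
Nhp2: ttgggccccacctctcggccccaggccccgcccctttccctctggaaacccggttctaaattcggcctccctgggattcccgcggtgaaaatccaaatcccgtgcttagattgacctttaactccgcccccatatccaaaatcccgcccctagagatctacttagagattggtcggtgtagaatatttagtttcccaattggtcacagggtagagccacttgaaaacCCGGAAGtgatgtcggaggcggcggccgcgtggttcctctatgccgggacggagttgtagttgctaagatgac
Rpl35: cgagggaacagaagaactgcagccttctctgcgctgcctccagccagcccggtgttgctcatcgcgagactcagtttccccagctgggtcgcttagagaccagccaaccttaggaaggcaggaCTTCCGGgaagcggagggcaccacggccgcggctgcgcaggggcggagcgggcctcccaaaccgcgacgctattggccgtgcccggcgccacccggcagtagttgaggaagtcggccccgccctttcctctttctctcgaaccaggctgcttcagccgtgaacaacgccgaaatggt
Mrpl57: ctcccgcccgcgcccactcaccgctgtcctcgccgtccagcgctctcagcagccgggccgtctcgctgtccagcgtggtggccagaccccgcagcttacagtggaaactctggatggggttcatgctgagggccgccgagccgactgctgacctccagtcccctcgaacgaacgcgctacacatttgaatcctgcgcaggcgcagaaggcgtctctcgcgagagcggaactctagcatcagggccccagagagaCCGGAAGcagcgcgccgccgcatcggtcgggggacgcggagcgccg
Psma4: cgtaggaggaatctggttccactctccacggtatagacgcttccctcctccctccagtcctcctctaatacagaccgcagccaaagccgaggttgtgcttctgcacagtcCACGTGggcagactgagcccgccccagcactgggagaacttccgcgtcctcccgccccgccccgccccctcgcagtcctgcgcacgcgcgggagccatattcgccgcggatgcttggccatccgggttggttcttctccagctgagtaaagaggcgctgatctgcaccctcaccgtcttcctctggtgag
Cox6a1: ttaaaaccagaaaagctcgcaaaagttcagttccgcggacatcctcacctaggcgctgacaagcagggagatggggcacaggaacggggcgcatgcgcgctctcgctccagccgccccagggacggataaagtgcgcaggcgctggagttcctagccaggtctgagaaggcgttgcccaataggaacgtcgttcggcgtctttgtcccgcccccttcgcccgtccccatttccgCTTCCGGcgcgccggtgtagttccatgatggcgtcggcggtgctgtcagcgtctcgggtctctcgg

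Beside Nhp2 and Mrpl57, given above, Rpl35 had 562 and 541 CPM in Asxl1-/-, against 396, 318 and 316 CPM in WT (0.69 ± 0.11, adjusted p = 0.0024). Psma4, of the proteasome core, had 166 and 160 CPM against 126, 116 and 115 CPM (0.46 ± 0.08, adjusted p = 0.0047, or 0.067 without Asxl1-/- 1). Cox6a1, of cytochrome c oxidase, had 285 and 267 CPM against 213, 172 and 189 CPM (0.53 ± 0.10, adjusted p = 0.0052, or 0.072 without Asxl1-/- 1). The ETS core was in 27% of the promoters of protein-coding genes called higher, in 17.1% of those called lower and in 17% of those of all tested protein-coding genes, against 8.86% of all 32851 promoters in the table. Promoters were found for 13 of the 15 called ribosome biogenesis genes, 15 promoters in all, of which 8 held the ETS core (53.3%) and 5 the E-box (33.3%). The other 4 groups differed from this in the E-box. Called cytosolic ribosomal protein genes had the ETS core in 27.1% and the E-box in 12.5% of 48 promoters. Mitochondrial ribosomal protein genes had them in 34.6% and 3.85% of 52, proteasome genes in 37% and 7.41% of 27, and oxidative phosphorylation genes in 33.3% and 0% of 18. The E-box was in 11.9% of promoters of genes called higher, 10.1% of genes called lower and 9.62% of all tested protein-coding genes. Over all promoters in the table it was in 7.15%. A match is only a run of letters and was not linked to binding.

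**Figure D3:**
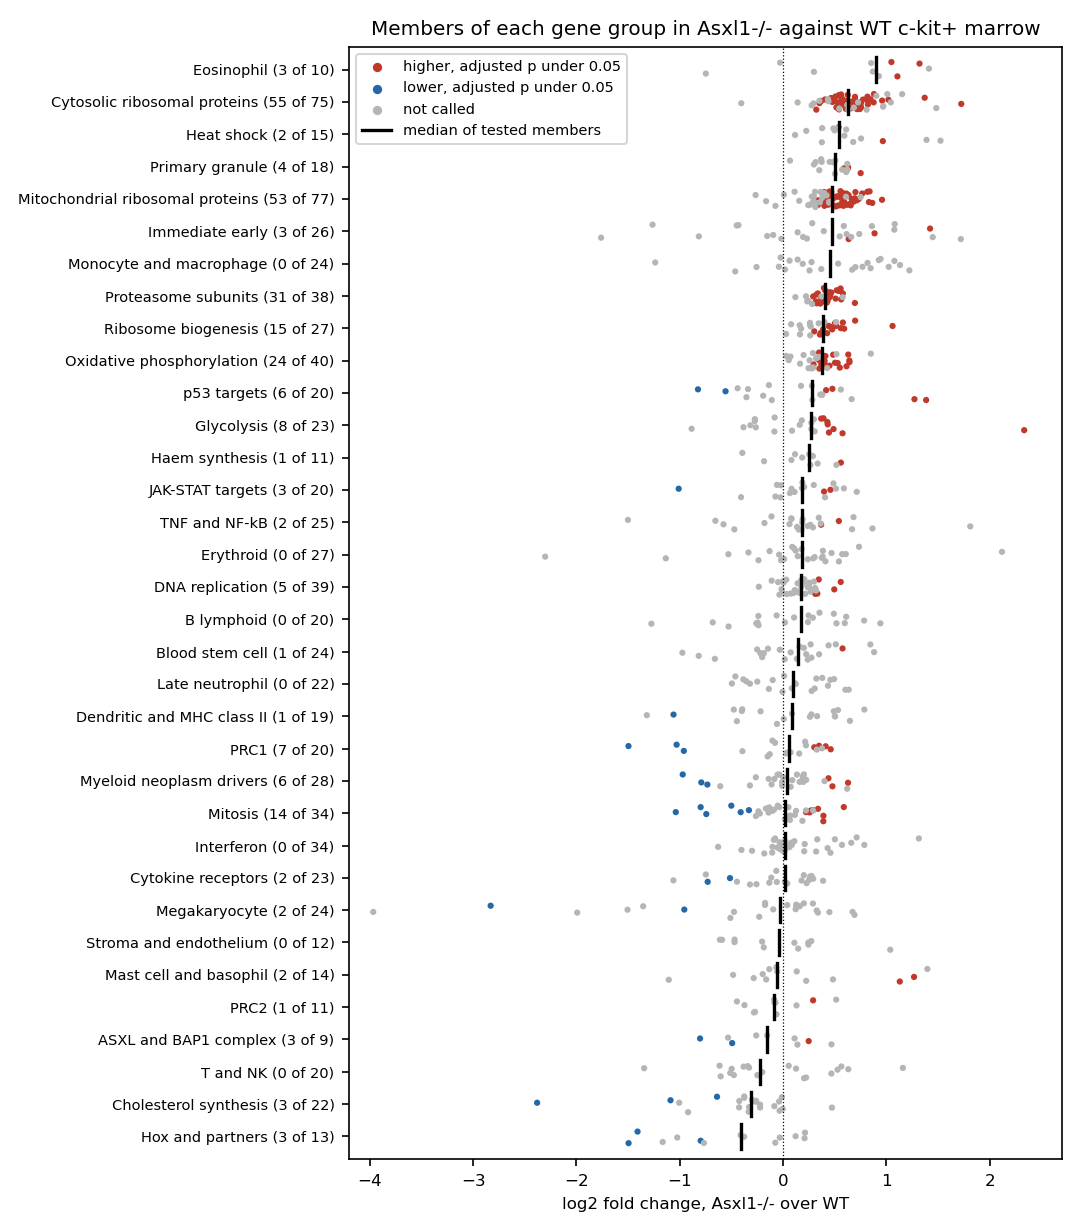
Log2 fold change of each tested member of 34 gene groups in Asxl1-/- over WT, ordered by the group median (black bar). Red points were called higher, blue lower, and the numbers beside each name are called and tested members. Points of the ribosomal protein, proteasome, ribosome biogenesis and oxidative phosphorylation groups lie almost wholly right of 0, and cholesterol synthesis points lie mostly left of it.

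Glycolysis genes rose in 8 of 23 tested entries (34.8%, beside 11.3% of all tested genes called higher), and 0 fell. The list median was 0.27. At an unadjusted p under 0.05 1 entry was lower, and DESeq2 called 0 lower. With a sex term 1 was called (median 0.13). Ldha, the lactate dehydrogenase subunit of glycolytic cells, had 864 and 824 CPM in Asxl1-/-, against 578, 552 and 570 CPM in WT (0.58 ± 0.08, adjusted p = 0.002), and was called without each library (adjusted p at most 0.044). Pfkl, of the phosphofructokinase step, rose by 0.49 ± 0.07 (adjusted p = 0.0023, or 0.054 without Asxl1-/- 1). Gapdh was at 134 and 57.1 CPM in Asxl1-/-, against 18.9, 20.2 and 17.8 CPM in WT (2.33 ± 0.30, adjusted p = 0.0018). Its Asxl1-/- values differed more than 2-fold from each other, and its counts are low for this enzyme and shared with annotated pseudogenes, so its fold is uncertain. Without Asxl1-/- 1 the glycolysis count was 2 and without Asxl1-/- 2 it was 4.

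Heat shock genes were above 0 in all 15 tested members (median 0.54), of which 2 rose (13.3%, beside 11.3% of all tested genes). The median was 0.08 and 0 were called with a sex term. Hspe1, the mitochondrial co-chaperonin, had 287 and 262 CPM in Asxl1-/-, against 165, 105 and 151 CPM in WT (0.97 ± 0.17, adjusted p = 0.0049, or 0.066 without Asxl1-/- 1). Hsp90ab1 rose by 0.54 ± 0.13 (adjusted p = 0.013, or 0.13 without Asxl1-/- 1). Cholesterol synthesis genes leaned the other way, with a median of -0.31 and 21 of 22 values below 0, of which 3 fell and 0 rose (1 higher at an unadjusted p under 0.05, 0 by DESeq2). The 3 falls are 13.6% of the list, beside 11.3% of all tested genes called lower. For cholesterol synthesis the sex term gave a median of -0.17 and 0 calls. Mvd, which decarboxylates mevalonate pyrophosphate, had 14.7 and 13.5 CPM in Asxl1-/-, against 23.7, 33.0 and 33.5 CPM in WT (-1.09 ± 0.21, adjusted p = 0.0063). Fdps, which makes farnesyl pyrophosphate, had 0.584 and 0.465 CPM against 1.62, 4.00 and 2.65 CPM (-2.38 ± 0.46, adjusted p = 0.0059). Its Asxl1-/- counts were near the floor of detection and it has 1 annotated pseudogene, so its fold is uncertain. The sterol reductase gene Tm7sf2 fell by 0.64 ± 0.19 (adjusted p = 0.032). None of the 3 falls was called without Asxl1-/- 1 (adjusted p = 0.068 to 0.2) or without Asxl1-/- 2 (0.051 to 0.14), and that of Tm7sf2 was lost without each of the 5 libraries.

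Cell division genes changed in both directions. Of 34 tested mitosis genes 8 rose (23.53%) and 6 fell (17.65%), beside 11.3% each way of all tested genes. The median log2 fold change of the list was 0.02. The median length was 3001 bases for the 8 and 8422 bases for the 6. With the length offset 8 were called higher and 5 lower, and with a sex term 1 and 3. Mki67, the proliferation antigen that coats mitotic chromosomes, was at 769 and 748 CPM in Asxl1-/-, against 1127, 1355 and 1326 CPM in WT (-0.74 ± 0.10, adjusted p = 0.0018). Cenpe, a kinetochore motor, had 95.9 and 96.6 CPM against 147, 184 and 172 CPM (-0.80 ± 0.12, adjusted p = 0.0024). Both were called without each library (adjusted p at most 0.0475) and with the length offset (-0.51 and -0.62). The kinetochore gene Cenpf fell by 1.04 ± 0.16 (adjusted p = 0.0026, or 0.053 without Asxl1-/- 1), and the cytokinesis kinesin gene Kif23 by 0.50 ± 0.10 (adjusted p = 0.0074, or 0.086 without Asxl1-/- 1 and 0.051 without Asxl1-/- 2). The rises were small, from 0.22 to 0.59, and none was called without Asxl1-/- 1. Of 39 DNA replication genes 5 rose and 0 fell (median 0.18; also 0 lower at an unadjusted p under 0.05 and by DESeq2). The 5 are 12.8% of the list, close to the 11.3% of all tested genes. The smallest adjusted p was that of Rpa3, of the single-strand DNA binding complex, with 53.04 and 52.59 CPM in Asxl1-/-, against 40.4, 38.4 and 33.6 CPM in WT (0.50 ± 0.10, adjusted p = 0.0065, or 0.075 without Asxl1-/- 1). The count of replication rises was 0 without Asxl1-/- 1, 2 without Asxl1-/- 2, 16 without WT 1, 3 without WT 2 and 2 without WT 3.

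Few lineage marker genes passed the test, and among them were granule genes of myeloid cells. Cpa3 (ENSMUSG00000001865, chromosome 3, 20215620 to 20242181), the mast cell carboxypeptidase, was at 71.9 and 63.9 CPM in Asxl1-/-, against 28.4, 28.6 and 27.6 CPM in WT. The WT values were close to each other and both Asxl1-/- values were more than 2-fold above them (1.27 ± 0.16, adjusted p = 0.0013). Cpa3 was called without each library (adjusted p at most 0.034), with a sex term (0.045) and with the length offset (1.19). The other 13 tested mast cell and basophil genes had a mixed direction. Of them the granzyme gene Gzmb was called (1.13 ± 0.37, adjusted p = 0.048) but in no fit that left out a library (adjusted p = 0.055 to 0.18), and the list median was -0.06.

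Eosinophil genes rose in 3 of 10 tested members (30%, beside 11.3% of all tested genes called higher). Of the 10 values 8 were above 0 (median 0.90). The 3 called genes are short (median length 838 bases), and in the shortest protein-coding length group 27.6% of genes were called higher. The list median was 0.55 and 0 were called with a sex term, with log2 fold changes of 1.01 for Prg2, 0.48 for Ear2 and 1.06 for Ear6 (adjusted p = 0.29 to 0.54). Prg2, the major basic protein of eosinophil granules, had 299 and 406 CPM in Asxl1-/-, against 203, 108 and 200 CPM in WT (1.05 ± 0.29, adjusted p = 0.032). The eosinophil ribonuclease genes Ear2 (48.5 and 64.6 CPM against 24.1, 20.6 and 34.0 CPM; 1.11 ± 0.27, adjusted p = 0.015) and Ear6 (17.1 and 25.6 CPM against 8.06, 4.51 and 13.1 CPM; 1.32 ± 0.37, adjusted p = 0.028) went the same way. Ear genes are near-identical copies, so reads may be split among them. None of the 3 was called without Asxl1-/- 1 (adjusted p = 0.068 to 0.094), Asxl1-/- 2 (0.11 to 0.18) or WT 2 (0.056 to 0.06), and Ear6 was not called without WT 1 (0.055).

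The primary granule list, of promyelocytes and their precursors, lay above 0 in all 18 tested members (median 0.50). Of these 4 rose (22.2%, beside 11.3% of all tested genes). The granule protein genes Mpo, Elane, Prtn3 and Ctsg were not called by edgeR's test (adjusted p = 0.24 to 0.37). The sex term gave a median of 0.76 and 0 calls here. Calr, a chaperone of the endoplasmic reticulum, had 2116 and 1834 CPM in Asxl1-/-, against 1431, 1164 and 1235 CPM in WT (0.63 ± 0.17, adjusted p = 0.025). Nkg7 had 234 and 230 CPM against 144, 146 and 123 CPM (0.75 ± 0.22, adjusted p = 0.035), Plac8 961 and 938 CPM against 606, 612 and 631 CPM (0.62 ± 0.18, adjusted p = 0.027), and Rgcc 163 and 127 CPM against 97.7, 96.9 and 94.2 CPM (0.59 ± 0.13, adjusted p = 0.011). The values of these 4 genes did not overlap between genotypes, as was so for 57.3% of all tested genes, and none was called without Asxl1-/- 1 (adjusted p = 0.15 to 0.19). Of the fits without another library, Rgcc was called in all 4, Calr and Plac8 only in that without WT 1, and Nkg7 in none (adjusted p = 0.051 to 0.12).

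The blood stem cell list had 1 call among 24 tested members, Cd34, the sialomucin of progenitor cells. It had 204 and 199 CPM in Asxl1-/-, against 143, 142 and 121 CPM in WT (0.58 ± 0.17, adjusted p = 0.034, or 0.069 with a sex term). That call held only without WT 1 (0.041) among the fits that left out a library, the others giving 0.075 to 0.17. Megakaryocyte genes had 2 falls among 24 (8.33%, beside 11.3% of all tested genes), with a median of -0.03. With a sex term 0 were called. Itgb3, the platelet integrin beta 3, had 24.27 and 24.99 CPM in Asxl1-/-, against 37.1, 57.5 and 48.6 CPM in WT (-0.96 ± 0.26, adjusted p = 0.023, or 0.057 to 0.16 without any one of Asxl1-/- 1, Asxl1-/- 2, WT 2 and WT 3). The platelet tubulin Tubb1 (0.233 and 0.116 CPM against 0.224, 2.37 and 1.27 CPM) overlapped between genotypes at the floor of detection. No erythroid (27 tested), late neutrophil (22), monocyte and macrophage (24), B lymphoid (20), T and NK (20), stroma (12) or interferon (34) gene was called, 159 genes in all. At an unadjusted p under 0.05 2 of them were higher and 0 lower, and DESeq2 called 1 higher. Without WT 3, 11 of the 34 interferon genes were called higher, and without WT 1, 3 of the 27 erythroid genes.

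Of 20 tested JAK-STAT genes 2 rose (10%) and 1 fell (5%), beside 11.3% each way of all tested genes. Their median log2 fold change was 0.19. With a sex term it was 0.16 and 0 were called. Jak2 (ENSMUSG00000024789, chromosome 19, 29251828 to 29313080), the kinase of the erythropoietin and thrombopoietin receptors, had 99.8 and 103 CPM in Asxl1-/-, against 71.7, 83.4 and 75.9 CPM in WT (0.40 ± 0.09, adjusted p = 0.0096, or 0.076 without Asxl1-/- 1 and 0.066 without Asxl1-/- 2). Ccnd2, the cyclin that cytokines induce through STAT5, rose by 0.46 ± 0.10 (adjusted p = 0.0079, or 0.078 without Asxl1-/- 1). Socs2, a feedback inhibitor induced by the same pathway, had 2.51 and 2.67 CPM in Asxl1-/-, against 6.32, 4.23 and 5.12 CPM in WT (-1.01 ± 0.28, adjusted p = 0.026, or 0.0565 to 0.18 without any one of Asxl1-/- 1, Asxl1-/- 2, WT 1 and WT 3). Of 26 immediate early genes 3 rose and 0 fell (also 0 at an unadjusted p under 0.05 and by DESeq2), with a median of 0.47. The 3 are 11.5% of the list, beside 11.3% of all tested genes called higher. With a sex term the median was -0.03 and 0 were called. Junb, an AP-1 subunit, had 73.6 and 98.0 CPM in Asxl1-/-, against 55.3, 46.5 and 37.4 CPM in WT (0.89 ± 0.22, adjusted p = 0.02), and Ier2 (0.63 ± 0.16) and Ier3 (1.42 ± 0.40) rose with it. These 3 calls held without WT 1, a fit that called 8 members, and were lost without each of the other 4 libraries (adjusted p = 0.054 to 0.14).

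Among 28 tested genes that are drivers of myeloid neoplasms in people 3 rose and 3 fell. That is 10.7% each way, beside 11.3% each way of all tested genes. The falls were Tet2, a dioxygenase that oxidises methylcytosine, Cbl, a ubiquitin ligase that turns off receptor tyrosine kinases, and Nf1, a RAS inhibitor. Tet2 (chromosome 3, 133463679 to 133545139) had 28.3 and 32.7 CPM in Asxl1-/-, against 53.7, 69.1 and 56.7 CPM in WT (-0.97 ± 0.15, adjusted p = 0.0023). Cbl had 228 and 234 CPM against 361, 441 and 400 CPM (-0.79 ± 0.12, adjusted p = 0.0025), and Nf1 16.2 and 18.9 CPM against 29.0, 30.0 and 28.3 CPM (-0.73 ± 0.14, adjusted p = 0.0066). All 3 are long genes (12345 to 16870 bases). With the length offset the changes were -0.55 for Tet2 (adjusted p = 0.015), -0.49 for Cbl (0.011) and -0.34 for Nf1 (0.086), and without Asxl1-/- 1 the adjusted p was 0.054, 0.054 and 0.1.

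Several genes fell by more than 4-fold. Vasn (ENSMUSG00000039646, chromosome 16, 4639941 to 4650802), which encodes vasorin, a membrane protein that binds TGF-beta, was at 5.43 and 6.45 CPM in Asxl1-/-, against 35.4, 47.5 and 51.0 CPM in WT. The log2 fold change was -2.91 ± 0.23 (adjusted p = 0.00026), and it was called without each library (adjusted p at most 0.018), with a sex term (-3.17, adjusted p = 0.0052) and with the length offset (-2.95). Malat1 (ENSMUSG00000092341, chromosome 19, 5795690 to 5802672), an abundant long non-coding RNA of nuclear speckles, was at 147 and 195 CPM in Asxl1-/-, against 865, 1057 and 1097 CPM in WT (-2.56 ± 0.25, adjusted p = 0.00066). The Asxl1-/- libraries also lay below the means of 718 ± 220 CPM for Asxl1-/-Jak2V617F and 681 ± 93.7 CPM for Jak2V617F libraries (SD, n = 3 each). Malat1 was called without each library (adjusted p at most 0.025), with a sex term (0.012) and with the length offset (-2.44). It is kept in the nucleus. Malat1 is itself a non-coding RNA, so its fall and the low share of non-coding RNA in both Asxl1-/- libraries are not independent observations. How much of that low share its own counts make up was not tested.

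Srrm2, a long scaffold protein of the same speckles, had 508 CPM in both Asxl1-/- libraries, against 817, 923 and 913 CPM in WT (-0.80 ± 0.09, adjusted p = 0.00079, or -0.48 with the length offset). The axonemal dynein heavy chain gene Dnah17 had 1.23 and 1.45 CPM in Asxl1-/-, against 6.77, 6.82 and 5.73 CPM in WT (-2.26 ± 0.30, adjusted p = 0.0016). Ccdc39, which sets the spacing of dynein arms in cilia, had 0.817 and 1.162 CPM against 4.81, 4.90 and 4.64 CPM (-2.27 ± 0.33, adjusted p = 0.0021). Ifitm7, of the interferon-induced transmembrane family, had 0.758 and 0.697 CPM against 4.20, 5.30 and 3.62 CPM (-2.58 ± 0.40, adjusted p = 0.0025). A630001G21Rik had 37.5 and 36.3 CPM against 72.7, 83.5 and 72.1 CPM (-1.04 ± 0.10, adjusted p = 0.00046). Of unspliced and non-coding genes, Gm38102 (chromosome 5) had 0.584 and 0.697 CPM against 5.54, 7.33 and 6.51 CPM (-3.32 ± 0.31, adjusted p = 0.0004), and Gm47798 (chromosome 14) 0.525 and 0.581 CPM against 4.25, 5.41 and 4.70 CPM (-3.10 ± 0.37, adjusted p = 0.00097). All 7 were called without each of the 5 libraries (adjusted p at most 0.0475).

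The largest rises included copies of other genes. Eif3j2 (ENSMUSG00000043424, chromosome 18, 43475418 to 43477796), which encodes a subunit of translation initiation factor 3 and has a near-identical copy, was at 28.6 and 31.8 CPM in Asxl1-/-, against 2.57, 2.31 and 3.56 CPM in WT (3.42 ± 0.47, adjusted p = 0.0023, and at most 0.036 without each library). With a sex term Eif3j2 was not called (log2 fold change 3.66, adjusted p = 0.066 by edgeR). The processed pseudogenes Atp6v0c-ps2 (chromosome 6, 37806086 to 37806550) and Gm9825 (chromosome 6, 7982541 to 7983383) were nearly absent from WT. Atp6v0c-ps2 had 92.3 and 83.0 CPM in Asxl1-/-, against 0.895, 1.30 and 0.783 CPM in WT (6.45 ± 1.29, adjusted p = 0.013, or 0.079 without Asxl1-/- 1). Gm9825 had 48.4 and 46.9 CPM against 0.559, 0.789 and 0.542 CPM (6.22 ± 1.35, adjusted p = 0.016, or 0.058 to 0.089 without any one of Asxl1-/- 1, Asxl1-/- 2, WT 2 and WT 3). Both levels also differed among libraries of the other genotypes: Gm9825 was at 0.949 CPM in Jak2V617F 3 and at 43.1 to 51.2 CPM in the other 5.

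**Figure D4:**
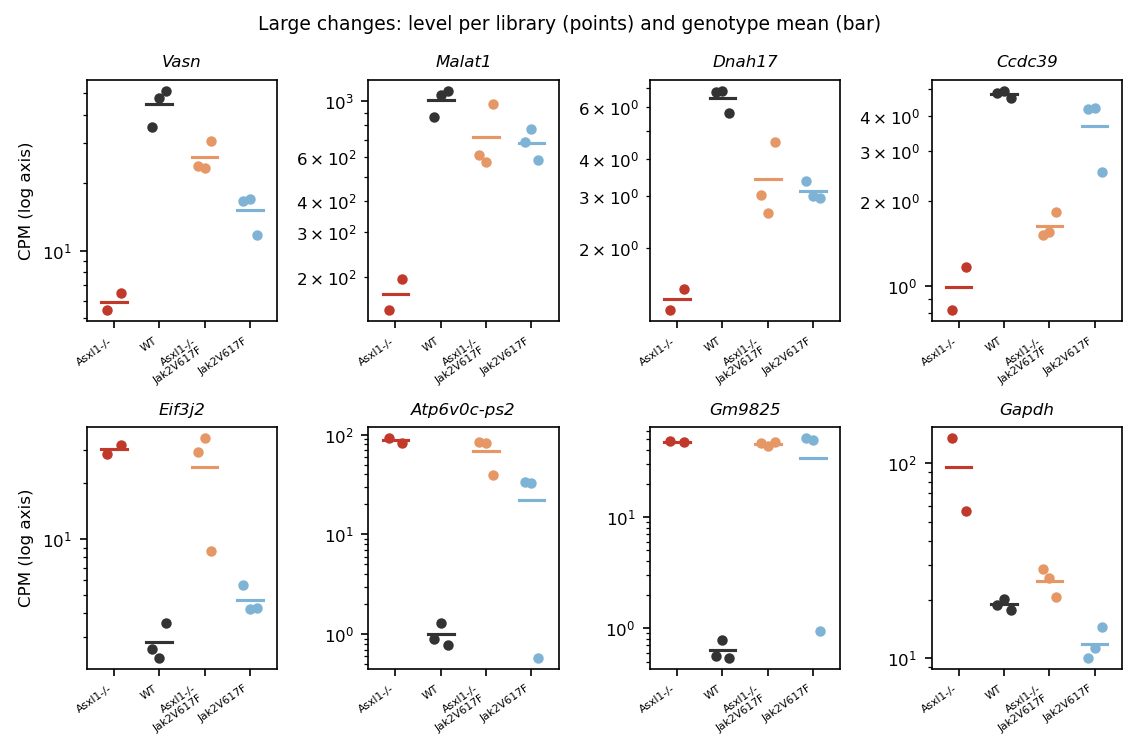
Level per library in CPM on a log axis (points) and genotype mean (bars) of 8 genes with large changes, with Asxl1-/- left of WT and the 2 Jak2V617F genotypes to the right. Vasn, Malat1, Dnah17 and Ccdc39 are lower in both Asxl1-/- libraries than in all WT libraries, and Eif3j2, Atp6v0c-ps2, Gm9825 and Gapdh are higher.

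Called genes were spread over the autosomes. Per chromosome, 9.12% to 13.96% of tested genes were called higher and 8.15% to 14.42% lower. Within 20 Mb of Asxl1, 36 of 298 tested genes were called higher (12.1%) and 26 lower (8.72%), against 101 (11%) and 116 (12.6%) of 922 on the rest of chromosome 2.

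The same loss on a Jak2V617F background, Asxl1-/-Jak2V617F against Jak2V617F, shares no library with this comparison. There 3864 genes (24.6%) were called higher and 3150 (20%) lower. Of the 1777 genes higher in Asxl1-/- than in WT, 353 were also higher there (19.9% of these and 9.14% of those) and 412 were lower. Of the 1772 lower genes 360 were also lower there (20.3% and 11.4%) and 323 were higher. The difference between the 2 effects was called for 6571 genes (41.8%). Asxl1 itself fell by 0.80 ± 0.14 on the log2 scale against WT and by 0.70 ± 0.12 in Asxl1-/-Jak2V617F against Jak2V617F (difference -0.10 ± 0.18, adjusted p = 0.68). Among the genes that were also called in Asxl1-/- against WT, Rab44, a large Rab GTPase, had the smallest adjusted p for the difference. It was at 348 and 354 CPM in Asxl1-/- and 536, 686 and 637 CPM in WT (-0.82 ± 0.14), but averaged 452 ± 42.2 CPM in Asxl1-/-Jak2V617F libraries, with 54.4 ± 8.11 CPM in Jak2V617F libraries (SD, n = 3 each; log2 fold change 3.05 ± 0.13). The 2 effects of Asxl1 loss on Rab44 had opposite signs.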

How the data were processed

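The authors deposited 1 table of raw counts, whole reads for each Ensembl gene in each of 11 RNA-seq libraries. HISAT2 2.0.5, featureCounts 1.5.0-p3, DESeq2 1.16.1 and the mm10 build are listed, without roles, per the submitters' processing notes. No source used here gives the strand setting, the handling of reads that map to several places or the annotation release, so counts of paralogs, pseudogenes, antisense and overlapping genes are uncertain. The filterByExpr filter left 16262 genes on all chromosomes. With TMM scaling and a 4-level genotype factor, all 11 libraries entered 1 robust quasi-likelihood fit in edgeR 4.0.16 (under R 4.3.3, with limma 3.58.1). P-values were adjusted by Benjamini-Hochberg across those genes, with a threshold of 0.05, and the SE is the size of the log2 fold change over the square root of F. The common biological coefficient of variation was 19.7%. A chi-square of replicate pairs per degree of freedom was 8.44 to 37 where sampling alone gives about 1, and no library was merged with another. The lowest value, 8.44, was that of the only Asxl1-/- pair. Pairs of WT libraries had 14.57 to 36.99. The scripts were tested on simulated data.

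The members and 31 gene lists were chosen with earlier results of these data known, and 3 further lists (cytosolic and mitochondrial ribosomal proteins, proteasome subunits) after values were seen. Lists are described by counts and medians only. Named genes come from a fixed rule: members of the ASXL and BAP1 list, the 12 largest rises and 12 largest falls of protein-coding genes with a mean of at least 2 CPM and no overlap, the 6 largest differences in CPM each way, up to 4 called members of smallest adjusted p in each list (or its first member where none is called), the 4 largest each way of other biotypes, and the 8 called genes of smallest adjusted p for the difference between backgrounds. The text names some of these. Kit, Cd3e and Xist, given as checks, and 3 genes at the end of the closing section were chosen outside it. Alternatives were a DESeq2 1.42.0 fit, scaling by median of ratios, no filter, a stricter filter (CPM of 1 in 2 libraries), fits of fewer libraries, a replicate block, a sex term and, chosen after seeing the data, a length offset with and without the sex term.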

Additional observations from a re-analysis of the deposited data

Results flagged for a closer look

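The effect of Asxl1 loss differed between the WT and the Jak2V617F background for 6571 of 15718 autosomal genes by edgeR's test of the difference itself (adjusted p under 0.05). Values below are the log2 fold change of Asxl1-/- over WT minus that of Asxl1-/-Jak2V617F over Jak2V617F, so a positive value means a higher one on the WT background. All are for genes named above or below whose difference passed the test. Each difference contains the change against WT by which the gene was called. Called rises therefore lean to positive and called falls to negative values, so these signs are not independent of the calls.

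Differences were positive for the called genes of protein synthesis, the proteasome and respiration named above, with Nop10 1.34, Nhp2 1.01, Rps29 1.67, Rpl37a 0.73, Rpl35 0.69, Rps16 0.64, Mrps16 1.12, Mrpl57 0.85, Psmb5 0.64, Psma4 0.50, Cox6a1 0.70, Cycs 0.55, Ndufs6 0.52 and Ndufa2 0.48. They were positive too for other genes that rose, of protein folding, glycolysis, replication, signalling, chromatin and haem synthesis, with Hspe1 1.75, Hsp90ab1 0.68, Gapdh 1.27, Ldha 0.47, Pfkl 0.37, Rpa3 0.56, Jak2 0.85, Ccnd2 0.60, Phc2 0.84, Bap1 0.40, Tmem14c 1.27, Nfkbib 0.79 and Rela 0.60. The pseudogenes had Gm9825 5.79 and Atp6v0c-ps2 4.81, with levels that varied among libraries of 1 genotype.

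Granule genes and other genes that rose in Asxl1-/- against WT had negative differences, with Nkg7 -3.13, Plac8 -2.66, Ear6 -2.96, Prg2 -2.79, Ear2 -1.66, Cd34 -2.39, Cpa3 -1.10, Calr -0.93, Rgcc -0.86, Ier2 -1.08 and Perp -3.24. Genes that fell in Asxl1-/- against WT were also negative, with Ifitm7 -4.91, Rab44 -3.87, Vasn -3.69, Fdps -2.94, Hoxb3 -2.85, Gm47798 -2.74, Malat1 -2.63, Itgb3 -2.42, Dnah17 -2.39, A630001G21Rik -2.05, Mvd -1.94, Hoxa3 -1.87, Hoxa7 -1.84, Gm38102 -1.71, Tet2 -1.66, Cbl -1.57, Cenpf -1.13, Cenpe -0.97, Kif23 -0.95, Phc3 -0.86, Mki67 -0.56, Tgfbr1 -1.40, Il6st -0.82 and Ddb2 -0.69. Clec9a, which also fell, had a positive difference of 2.26.

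Y-linked genes, which lie outside the autosomal comparison, had 3298 and 3337 counts in the 2 Asxl1-/- libraries and none in the WT libraries. Sex and genotype cannot be told apart within these 5 libraries.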

How the results depend on the processing

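Direction held for all 80 called genes listed for this check under every alternative in which they were tested. The count of calls changed most with terms and libraries that leave little to estimate the effect from. With a sex term, which rests on Jak2V617F 2, 493 genes were called, 92 higher and 401 lower, and with the length offset and the sex term together 136, 32 higher and 104 lower. The difference between backgrounds was then called for 2995 genes (1142 positive and 1853 negative) and for 3135 (1577 and 1558). Of the 80 genes 55 lost their call with the sex term and 73 with both. Leaving out 1 library gave 279 to 4237 calls, 74 to 2449 higher and 205 to 1788 lower, and 4358 to 6804 differences, 1790 to 3272 positive and 2568 to 3532 negative. The causes were not tested.

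Other counts stayed within 1.5 times of those reported. They were 2103 higher and 1910 lower with DESeq2, 1835 and 1749 with median-of-ratios scaling, 1561 and 1650 without a filter, 1631 and 1714 with a stricter filter, 1650 and 1841 with both genotypes alone, 1636 and 1795 without the Jak2V617F libraries, and 1911 and 1279 with the length offset. The median log2 fold change of all tested genes was -0.008 in the fit reported, -0.001 with median-of-ratios scaling and 0.054 with the length offset. No difference between backgrounds could be computed from fits without all 4 genotypes.

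With the replicate number as a block, 3298 genes were called, 1714 higher and 1584 lower, and 9 of the 80 genes lost their call. Of 15 pairs of libraries that share a number, 4 had deviations that correlated above 0.1 (range -0.199 to 0.182). Both pairs of Asxl1-/- with WT were among the 4 (0.155 and 0.111). No label says what a number stands for and 2 pairs are too few to settle it, so the numbers were not used as pairs. With 2 Asxl1-/- libraries, genes near the floor of detection carry the least weight.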

Other observations

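Of 20 tested p53 target genes 4 rose and 2 fell (30% called, beside 22.6% of all tested genes), with a median log2 fold change of 0.28. With a sex term the median was -0.05 and 0 were called. Perp, a desmosomal membrane protein that p53 induces, had 4.90 and 5.58 CPM in Asxl1-/-, against 1.96, 2.59 and 1.45 CPM in WT (1.39 ± 0.32, adjusted p = 0.012 by edgeR). The damage recognition gene Ddb2 had 9.16 and 7.67 CPM against 14.8, 16.3 and 13.6 CPM (-0.82 ± 0.18, adjusted p = 0.0091). Neither was called without Asxl1-/- 1 or without Asxl1-/- 2. Of 25 TNF and NF-kB genes 2 rose (8%), the inhibitor gene Nfkbib (0.54 ± 0.12) and the NF-kB subunit gene Rela (0.37 ± 0.10). Of 23 cytokine receptor genes 2 fell (8.7%), Il6st (-0.73 ± 0.19), the shared receptor subunit of the IL-6 family, and Tgfbr1 (-0.51 ± 0.15). Neither fall was called with the length offset (adjusted p = 0.072 and 0.066). Of all tested genes 11.3% were called each way. Of 11 haem synthesis genes Tmem14c rose (0.56 ± 0.17), and Clec9a, 1 of 19 tested genes of dendritic cells and antigen presentation, fell (-1.06 ± 0.33). None of these 6 calls held without Asxl1-/- 1 or without Asxl1-/- 2.

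In 5 genes all Asxl1-/- values differed from all WT values by more than 10-fold at over 2 CPM. They were chosen after their values were seen, and 2 of them, Atp6v0c-ps2 and Gm9825, are described above. Pcna-ps2 (chromosome 19), a copy of Pcna, had 124.0 and 119.3 CPM in Asxl1-/-, against 2.01, 1.69 and 3.07 CPM in WT (5.75 ± 1.87, adjusted p = 0.064). It was also split within other genotypes, at 116, 120 and 2.50 CPM in Asxl1-/-Jak2V617F, against 3.27, 2.06 and 62.6 CPM in Jak2V617F. The processed pseudogene Gm6166 (chromosome 9) had 10.6 CPM in both Asxl1-/- libraries, against 0.168, 0.507 and 0.0603 CPM in WT (adjusted p = 0.12), with 19.8, 26.5 and 1.10 CPM in Asxl1-/-Jak2V617F, against 0.644, 0.785 and 39.7 CPM in Jak2V617F. AC154187.2 (chromosome 17) went the other way, with 0.117 and 0.116 CPM in Asxl1-/-, against 2.41, 5.47 and 4.40 CPM in WT (adjusted p = 0.078).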
